A study of Mus musculus with 4 samples.

Results

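Activins are secreted dimers of inhibin beta subunits, and the 10 genes described here encode 4 of these subunits, the 2 follistatins that bind them and 4 of their receptors. The genes were taken by symbol (Inhba, Inhbb, Inhbc, Inhbe, Fst, Fstl3, Acvr1b, Acvr1c, Acvr2a and Acvr2b), and all 10 had a row among the 24063 gene symbols of the deposited tables. They were measured in 4 poly-A RNA libraries from mouse tumours of 1 group, labelled MYC;PMEPA1 overexpression, with the strain written C57BL6/J in the titles and C57BL/6 in the strain field. Delivery was through the tail vein by the hydrodynamic method, in which a large volume given quickly carries DNA mainly into hepatocytes, and the labels name no treatment. The tumours carry the replicate numbers 1, 5, 9 and 10. No age is labelled, and nothing ties the tumours to separate animals, so the p-values measure only the spread between these samples, which may be technical. The labels also name 8 to 10 passages, and what was passaged is not explained. With 1 group and no control, the measurement is how these genes differ between tumours.

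Activin A and activin B are dimers of the subunits encoded by Inhba and Inhbb, and a beta subunit joined to the alpha subunit, encoded by Inha, gives an inhibin, which opposes activin. An activin dimer binds a type II receptor (ACVR2A or ACVR2B), which recruits and phosphorylates a type I receptor (ALK4, encoded by Acvr1b, or ALK7, encoded by Acvr1c), and the complex phosphorylates SMAD2 and SMAD3. Follistatin and follistatin-like 3 wrap around the ligand and block receptor binding. In liver, activin A restrains hepatocyte growth, follistatin promotes it, and the subunit genes Inhbc and Inhbe are expressed mainly in hepatocytes. PMEPA1, itself a target gene of TGF-beta, sits in membranes and holds back the same SMADs.

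Gene totals ranged from 41547938 to 51939623 counts per library. Levels are given as counts per 1000000 (CPM) after TMM scaling. In these libraries 3 counts, used as the floor for a count of 0, correspond to 0.0524 to 0.0892 CPM. The intervals in brackets are exact Poisson 95% intervals, and they and the floors cover counting error only. Hepatocyte markers were present in all 4 tumours, with none of 12 at 0. Their summed level was 16200, 18100, 22500 and 41300 CPM in tumours 1, 5, 9 and 10. Of the 12, 10 were highest in tumour 10, as were 35.8% of all expressed genes (those averaging at least 1 CPM). Tumour 9 stood apart in blood cell genes: the 8 neutrophil markers summed to 535 CPM there and to between 11.5 and 23.4 CPM elsewhere, and the 9 macrophage and Kupffer cell markers to 946 CPM against 212 to 394. Of those 9, 7 were highest in tumour 9, as were 21.6% of all expressed genes. Clec4f (20.7, 2.99, 0.744 and 0.208 CPM) and Marco (8.67, 1.07, 2.68 and 0.208 CPM) were highest in tumour 1. Stellate cell and fibroblast markers summed to 123 CPM in tumour 10 and to 314 to 527 CPM elsewhere. Of these 10 markers, 9 were lowest in tumour 10, as were 32.4% of all expressed genes. In bulk tissue, fewer cells of a type and less RNA per cell cannot be told apart.

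Upstream sequence is shown for Fstl3, Inhbe and Inhbc, the expressed genes with the largest spread between tumours that had an entry. Inhbe and Inhbc lie next to each other on the minus strand of chromosome 10, 1910 bases apart, and both overlap the antisense gene Gm47200. RefSeq windows for GRCm38.p6 were matched for 9 of the 10 genes, and the 250 bases before each start were searched on both strands for 6 motifs: CACGTG (an E-box), CAGAC (a SMAD box), TGACGTCA (a cyclic AMP response element), TTGCATCA (a C/EBP-ATF composite), TATAAA and CCAAT. The search gives matching letters only. Capitals in the sequences mark the matches, and GTCTG and TTTATA are the reverse complements of CAGAC and TATAAA. Of the Inhbe window, only 30 bases around its composite motif are shown, at chr10:127352011-127352040, because the GENCODE annotation counts part of the window as an untranslated exon of Inhbe. The Inhbc sequence is chr10:127370549-127370798, minus strand, and the Fstl3 sequence is chr10:79777024-79777271, plus strand.
Inhbe: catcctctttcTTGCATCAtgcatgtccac
Inhbc: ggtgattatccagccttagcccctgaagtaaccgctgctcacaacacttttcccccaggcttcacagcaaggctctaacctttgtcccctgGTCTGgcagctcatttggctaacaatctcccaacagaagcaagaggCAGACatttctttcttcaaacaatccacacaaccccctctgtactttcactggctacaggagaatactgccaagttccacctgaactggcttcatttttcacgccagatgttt
Fstl3: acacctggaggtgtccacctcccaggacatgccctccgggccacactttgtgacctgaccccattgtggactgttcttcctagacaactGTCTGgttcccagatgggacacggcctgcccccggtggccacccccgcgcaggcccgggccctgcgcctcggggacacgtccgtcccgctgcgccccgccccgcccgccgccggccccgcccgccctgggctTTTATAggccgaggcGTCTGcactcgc

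The composite motif TTGCATCA was found in the Inhbe window, at 181 bases before the start, and in no other matched window of these genes. It occurs in 0.791% of the 32851 promoter windows of this length. CAGAC was found in the windows of Inhbe, Inhbc, Fstl3, Acvr2a and Acvr2b and occurs in 42.2% of all windows. The E-box CACGTG, the sequence that MYC binds, was found for Acvr1b, 54 bases before the start, against 6.02% of all windows. The G and C content of the 250 bases was 48.8% for Inhbc, 58.8% for Inhbe and 71.2% for Fstl3.

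Genes averaging at least 1 CPM over the tumours were called expressed and tested, which left 8 of the 10. Fst passed this filter only through tumour 1, and Inhba and Acvr1c did not pass. A Poisson heterogeneity test, adjusted by Benjamini-Hochberg over 13129 expressed genes, found 7 of the 8 to vary between tumours beyond counting error. Of all expressed genes, 98.7% did so, and 94.1% when 5% of technical variation was added, where 7 passed again. The count of members is therefore near the background, and the one that did not pass, in either test, was Acvr2a. The median SD of log2 CPM over the 4 tumours was 0.92 for the 8 genes and 0.45 for all expressed genes. The 3 tested receptors had SDs of 0.06 to 0.46, the 3 tested beta subunits 0.76 to 1.37, and the 2 follistatins 2.21 (Fstl3) and 2.59 (Fst). The value for Fst, which also enters the median of 0.92, comes from a gene that passed the filter by its high tumour. Inhba, which did not pass, had an SD of 1.1.

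**Figure D1:**
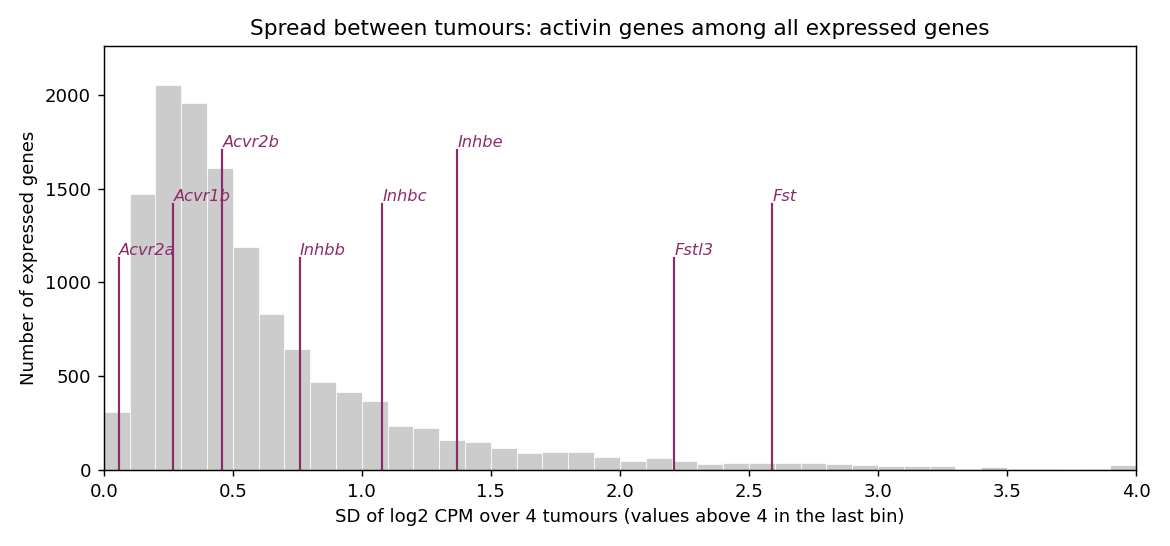
Distribution of the SD of log2 CPM over the 4 tumours for 13129 expressed genes (grey bars, number of genes per bin of SD), with the 8 tested activin genes marked by lines. Acvr2a lies at 0.06, near the lower end, and Fstl3 and Fst at 2.21 and 2.59, in the upper tail.

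Among the beta subunits, Inhba was the lowest (NM_008380, GRCm38 chromosome 13, 16011851 to 16031621, plus strand). It had 1.31 [1.03 to 1.64], 0.327 [0.179 to 0.548], 1.25 [0.966 to 1.58] and 0.297 [0.143 to 0.547] CPM in tumours 1, 5, 9 and 10, from 75, 14, 67 and 10 counts. Tumours 1 and 9 thus lay above tumours 5 and 10, with no overlap of the intervals between these pairs and overlap within them. Inhbb (NM_008381, chromosome 1, 119415465 to 119422248, minus strand) had 18.0, 8.76, 23.1 and 29.7 CPM, averaging 19.9 ± 8.84 CPM (SD, n = 4). It was lowest in tumour 5, 3.40 times below tumour 10 [3.01 to 3.83]. Tumour 10 was its highest tumour under TMM, whereas scaling by total counts put tumour 9 first.

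Inhbc and Inhbe, the hepatocyte subunits, differed from each other in the order of the tumours. Inhbc (NM_010565, chromosome 10, 127356322 to 127370431) had 9.82, 4.90, 4.75 and 23.5 CPM in tumours 1, 5, 9 and 10, averaging 10.7 ± 8.81 CPM (SD, n = 4). Tumour 10 was highest under each scaling, 2.39 times above tumour 1 [2.14 to 2.67], and the intervals of tumours 5 and 9 overlapped. Inhbe (NM_008382, chromosome 10, 127348857 to 127354411) had 10.3, 3.95, 40.0 and 12.2 CPM, averaging 16.6 ± 16 CPM (SD, n = 4). Its highest tumour was tumour 9, 3.28 times above tumour 10 [2.95 to 3.65] and 10.1 times above tumour 5 [8.67 to 11.9].

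The ratio of Inhbe to Inhbc, in CPM per kilobase of transcript, was 0.964, 0.742 and 0.48 in tumours 1, 5 and 10, and 7.78 in tumour 9. Tumour 9, the library with high blood cell markers, is therefore the one in which the neighbouring genes separated, with Inhbe high and Inhbc as low as in tumour 5. The part of the blood cell content in this was not tested. In tumour 10, where hepatocyte markers were highest, Inhbc was highest too, and the part of hepatocyte content was not tested either. Antisense genes overlap Inhba, Inhbc, Inhbe, Fst, Acvr1c and Acvr2b, and if counting ignored strand, their reads cannot be told apart from those of these genes.

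Summed over the 4 subunits, the level was 14.9, 6.61, 27.4 and 24.8 CPM per kilobase in tumours 1, 5, 9 and 10. Inhba contributed 5.75, 3.23, 2.98 and 0.783% of it. Inhbb contributed 28.4, 31.1, 19.8 and 28.1%. Inhbc and Inhbe supplied the rest: Inhbe made up 68.4% in tumour 9, and Inhbc made up 48.0% in tumour 10.

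**Figure D2:**
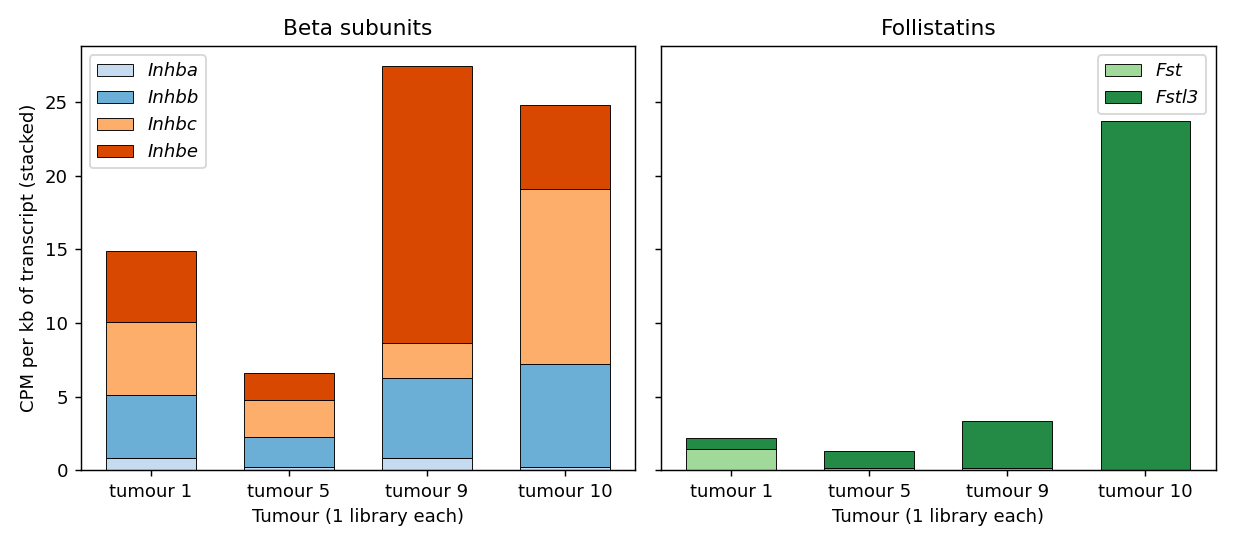
Stacked levels in CPM per kilobase of transcript of the 4 beta subunits (left) and the 2 follistatins (right) in each tumour, 1 library per bar. Inhbe dominates the subunits of tumour 9, and Fstl3, whose reads may be shared with Prss57, reaches 23.7 CPM per kilobase in tumour 10.

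The 2 follistatins lay at opposite ends of the tumours. Fst (NM_008046, chromosome 13, 114452290 to 114458951, minus strand), which encodes follistatin, had 3.42 [2.96 to 3.94], 0.327 [0.179 to 0.548] and 0.354 [0.213 to 0.552] CPM in tumours 1, 5 and 9, from 196, 14 and 19 counts. In tumour 10 it had 0 counts, where the 3-count floor is 0.0892 CPM and the exact interval reaches 0.11 CPM. Tumour 1 was 9.68 times above tumour 9 [6.04 to 16.4]. It was 38.4-fold above the 3-count floor of tumour 10, a value that leaves out the counting error of tumour 1.

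Fstl3 (NM_031380, chromosome 10, 79777272 to 79782630, plus strand) encodes follistatin-like 3. It had 1.42 [1.12 to 1.76], 2.26 [1.84 to 2.76], 6.25 [5.6 to 6.96] and 46.2 [43.9 to 48.6] CPM in tumours 1, 5, 9 and 10, from 81, 97, 336 and 1554 counts. Each tumour's interval lay apart from the others, and tumour 10 was 7.39 times above tumour 9 [6.56 to 8.34] and 32.6 times above tumour 1 [26.1 to 41.3].

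The level of Fstl3 has a limit set by its neighbour. Prss57, a serine protease of neutrophil granules (chromosome 10, 79781474 to 79790961), lies on the opposite strand, and 1157 bases of its exons are shared with the counted Fstl3 transcript. Its counts followed those of Fstl3, at 52, 65, 299 and 1063 in tumours 1, 5, 9 and 10. Whether counting used strand is not given in the sources used here, so reads of the shared bases cannot be assigned. If every Prss57 read were also counted on Fstl3, 29, 32, 37 and 491 counts would be left for Fstl3, or 0.507 [0.339 to 0.728], 0.747 [0.511 to 1.05], 0.689 [0.485 to 0.949] and 14.6 [13.3 to 15.9] CPM. With these counts tumour 10 stood 19.5 to 28.8 times above the other tumours, and the intervals of tumours 1, 5 and 9 overlapped. If no Prss57 read was counted on Fstl3 alone, which is not known, the counts left are a lower bound for the level in each tumour. They are not a lower bound for the ratio between tumours. The share of common reads may differ between tumours, and the ratio to tumour 9 was 7.39 before the subtraction and 21.2 after it. Neutrophil markers summed to 23.4 CPM in tumour 10, against 535 CPM in tumour 9, and the cell source of the Prss57 reads was not tested.

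Set against the subunits, the follistatins were low in tumours 1, 5 and 9 and higher in tumour 10. The sum of Fst and Fstl3 was 0.147, 0.197 and 0.122 times the sum of the 4 subunits, per kilobase, in tumours 1, 5 and 9, and 0.953 times in tumour 10. With the Prss57 counts taken off Fstl3, the ratios were 0.116, 0.079, 0.0184 and 0.301. Per kilobase, Fstl3 exceeded Fst 8.29-fold in tumour 5, 21.2-fold in tumour 9 and, with Fst put at its 3-count floor, 620-fold in tumour 10. Fst was the higher of them in tumour 1, where the ratio was 0.495. With the Prss57 counts taken off, the ratio of Fstl3 to Fst was 0.177, 2.74 and 2.33 in tumours 1, 5 and 9. In tumour 10 it was 196 with Fst put at that floor.

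**Figure D3:**
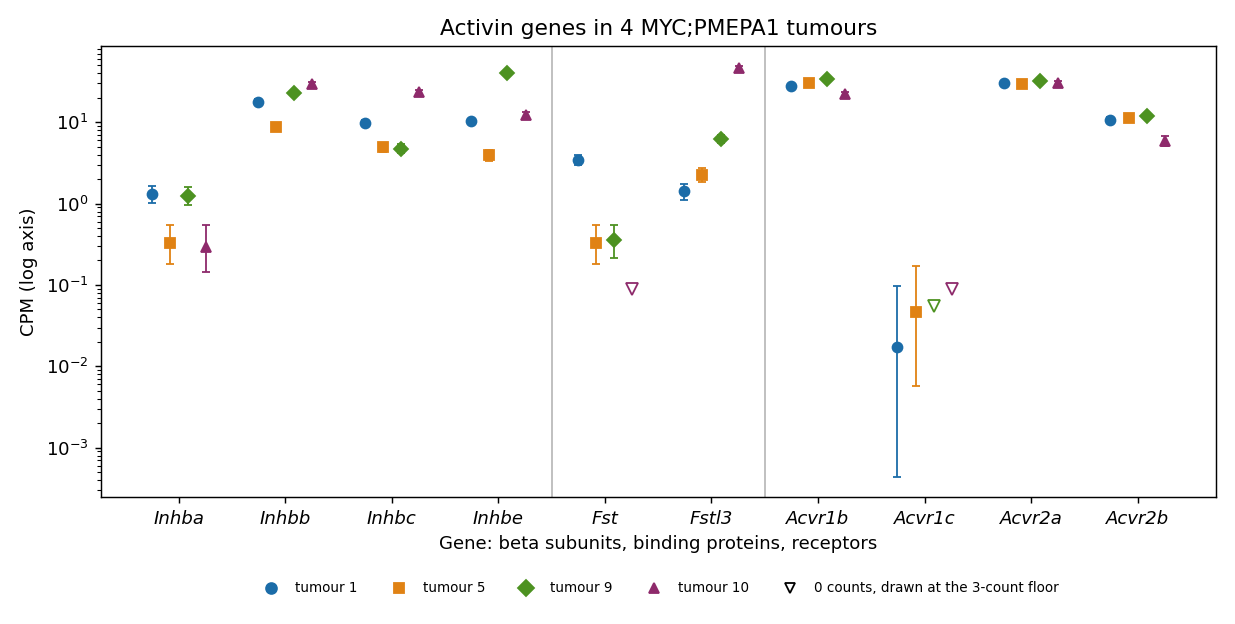
CPM of the 10 activin genes in each tumour on a log axis, with exact Poisson 95% intervals, and open triangles at the 3-count floor where no read was counted. Acvr2a lies between 29.5 and 32.3 CPM in all tumours, while Fstl3 runs from 1.42 to 46.2 CPM and Fst from 3.42 CPM down to 0 counts.

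The receptors had smaller SDs between tumours than the ligands. Acvr2a (NM_007396, chromosome 2, 48814109 to 48903269, plus strand), a type II receptor, had 30.3, 29.5, 32.3 and 30.6 CPM in tumours 1, 5, 9 and 10, averaging 30.7 ± 1.2 CPM (SD, n = 4). It did not vary beyond counting error (Poisson test, adjusted p = 0.0729), and only 0.373% of expressed genes had a smaller SD. With total counts in place of TMM, which shifts the median gene of tumour 10 by -0.32 log2 units, Acvr2a did pass, as it did without tumour 1 and without tumour 10. Orc4 on the opposite strand shares 446 bases with the transcript.

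Acvr2b (NM_007397, chromosome 9, 119402118 to 119434995, plus strand), the other type II receptor, had 10.8, 11.3, 11.8 and 5.95 CPM, averaging 9.96 ± 2.71 CPM (SD, n = 4). The intervals of tumours 1, 5 and 9 overlapped, and tumour 10 was lowest, 1.99 times below tumour 9 [1.69 to 2.34]. Without tumour 10 Acvr2b no longer varied beyond counting error. The ratio of Acvr2a to Acvr2b per kilobase was 0.843, 0.783 and 0.82 in tumours 1, 5 and 9 and 1.54 in tumour 10.

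Acvr1b (NM_007395, chromosome 15, 101174067 to 101213684, plus strand), the type I receptor ALK4, had 28.0, 30.7, 34.4 and 22.2 CPM, averaging 28.8 ± 5.12 CPM (SD, n = 4), with tumour 9 at 1.55 times tumour 10 [1.42 to 1.69]. Acvr1c (chromosome 2, 58267453 to 58357895, minus strand), the type I receptor ALK7, had 1, 2, 0 and 0 counts, all under the floor. ALK4 was thus the type I activin receptor whose transcript was detected above the floor, in 4 of 4 tumours.

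In CPM per kilobase, the mean levels ran from 8.79 ± 1.56 for Acvr1b, 7.78 ± 7.5 for Inhbe and 7.19 ± 11 for Fstl3 through 5.85 ± 1.59 for Acvr2b, 5.45 ± 4.47 for Inhbc, 5.40 ± 0.211 for Acvr2a and 4.67 ± 2.08 for Inhbb to 0.520 ± 0.365 for Inhba and 0.439 ± 0.688 for Fst (SD, n = 4 each). The first 7 did not differ from their neighbours in this order beyond their SDs, and Inhba and Fst lay below them. The place of Fstl3 comes from tumour 10: it had 0.725, 1.16, 3.20 and 23.7 CPM per kilobase, and with the Prss57 counts taken off it averaged 2.12 ± 3.57. In tumour 1, Fst (1.47) and Inhba (0.857) lay above Fstl3.

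Each tumour was also tested against the other 3 with edgeR's quasi-likelihood test. The single tumour is assumed to have the same spread as the rest. Adjusted over 13129 genes and the 4 tumours together, 0 of the 8 activin genes were called in any tumour, and 0% of all genes. At an unadjusted p of 0.05, the test gave Inhbb lower in tumour 5, Inhbe higher in tumour 9, and Inhbc and Fstl3 higher in tumour 10. The shares of all genes at that p were 0.305% lower in tumour 5, 3.76% higher in tumour 9 and 13.9% higher in tumour 10. No activin gene was at that p in tumour 1 in either direction (0.427% of all genes higher, 0.289% lower), higher in tumour 5 (0.617%), lower in tumour 9 (1.89%) or lower in tumour 10 (8.26%). Adjusted within tumour 10 alone, edgeR called 0 of the 8, against 1.3% of all genes higher and 0.449% lower. DESeq2 called 0 of the 8 in tumour 1 (0.129% of all genes higher, 0.0914% lower), 0 in tumour 5 (0.099% and 0.244%) and 0 in tumour 9 (1.06% and 1.36%), and limma-voom called 0 in each tumour, as it did of all genes (0%).

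Fstl3 in tumour 10 had the lowest p among the 8 genes. Its log2 difference from the other 3 tumours was 3.80, with an edgeR adjusted p of 0.319. The DESeq2 Wald test gave 3.80 ± 0.89 (SE) and an adjusted p of 0.00146, where 6.33% of all genes were called higher in tumour 10, and limma-voom gave an adjusted p of 0.208. Without tumour 9, which had the second highest level of Fstl3 (6.25 CPM), the edgeR test called Fstl3 too. Leaving out tumour 9 narrows the spread of Fstl3 among the tumours compared. The share of all genes called in that run is not given. Inhbc was 1.85 log2 units higher in tumour 10 and Inhbe 2.18 higher in tumour 9, with edgeR adjusted p-values of 0.483 and 0.551.

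The nearest expression profiles were sought for the 3 genes with the largest SD, by Euclidean distance between log2 CPM profiles centred on their means over 4 tumours, among 13128 other expressed genes. With 4 points, near profiles are common: 225 genes lay within a distance of 1 of Inhbe, 18 of Fstl3 and 4 of Fst. The nearest to Inhbe were Arhgap30 (0.24), Tfec (0.30) and Myo1g (0.30), and Arhgap30 had 5.29, 2.40, 21.8 and 5.98 CPM in tumours 1, 5, 9 and 10. Tfec had 4.76 and Myo1g 11.4 CPM in tumour 9, also their highest tumour. Tumour 9 had high blood cell markers, and the part of blood cell content in these profiles was not tested. The nearest to Fstl3 were Mrap (0.22), an accessory protein of the ACTH receptor, the overlapping Prss57 (0.36) and Mgmt (0.64), a DNA repair enzyme. Mrap had 6.22, 9.25, 31.0 and 209.0 CPM. The nearest to Fst were Cldn6 (0.73), a claudin of embryonic epithelia, Lect2 (0.74), a protein secreted by hepatocytes, and Cxxc4 (0.80), and Cldn6 had 6.34, 1.28, 0.912 and 0.0892 CPM.

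The rest of the pathway was followed in 5 lists with 62 genes, 51 of them expressed. In the edgeR test at an adjusted p of 0.05, 0 of the 51 were called in any tumour. At an unadjusted p of 0.05, 4 were higher and 3 lower in tumour 9, where 3.76% and 1.89% of all genes were. In tumour 10, 6 were higher and 12 lower, against 13.9% and 8.26% of all genes. DESeq2 called 1 higher and 1 lower in tumour 9, against 1.06% and 1.36% of all genes, and 2 higher and 9 lower in tumour 10, against 6.33% and 4% of all genes. Those called higher by DESeq2 in tumour 10 were Ddit4 and Smurf1. Ddit4 had 111, 93.7, 112 and 333 CPM in tumours 1, 5, 9 and 10, and Smurf1 had 15.1, 16.4, 12.4 and 45.6 CPM. The median SD of the 51 pathway genes was 0.73.

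**Figure D4:**
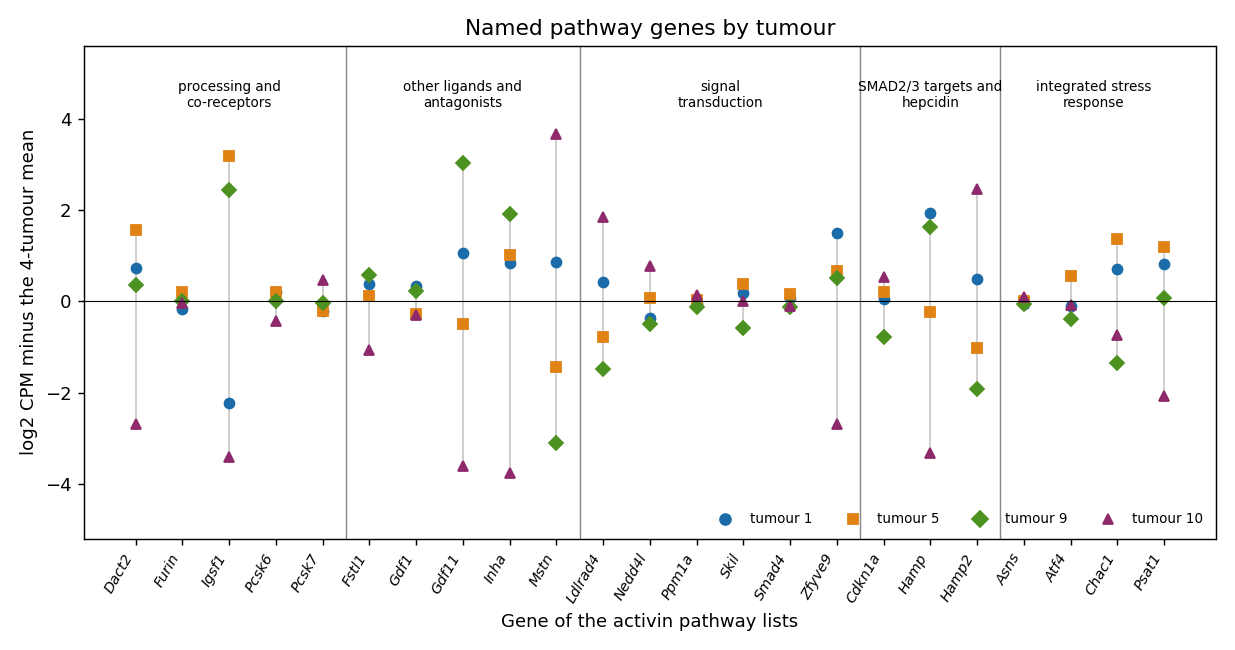
Log2 CPM minus the 4-tumour mean for the named genes of 5 pathway lists, 1 symbol per tumour. Tumour 10 lies lowest for Inha (-3.76), Gdf11 (-3.60), Dact2 (-2.68) and Zfyve9 (-2.69), among others. It lies highest for Mstn (3.68), Hamp2 (2.46) and Ldlrad4 (1.86), among others. Furin, Smad4, Ppm1a and Asns lie near 0 in every tumour.

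Ligands and antagonists outside the 10 genes were lowest in tumour 10 in 5 of 8 expressed cases and highest there in 2, where 32.4% of all expressed genes were lowest and 35.8% highest. Inha, the alpha subunit that makes inhibins, had 8.19, 9.27, 17.4 and 0.297 CPM in tumours 1, 5, 9 and 10, from 469, 397, 934 and 10 counts. Tumour 9 was 58.5 times above tumour 10 [31.6 to 122], and per kilobase Inha stood at 0.376, 0.958, 0.434 and 0.00819 times the summed beta subunits. Gdf11, a ligand that uses the same type II receptors, had 2.55, 0.841 and 10.1 CPM in tumours 1, 5 and 9 and 2 counts in tumour 10. DESeq2 called both lower in tumour 10 (adjusted p = 5.80e-08 and 0.0158), and edgeR did not (0.210 and 0.613).

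Fstl1, a secreted follistatin-domain protein, was also lowest in tumour 10, with 23.8, 19.6, 26.9 and 8.65 CPM. Mstn (myostatin), another ligand of these receptors, went the other way: it had 36, 4, 0 and 157 counts, which is 4.67 CPM in tumour 10. Gdf1 had 3.87 to 6.06 CPM, and because it is transcribed together with Cers1, its level is uncertain.

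Of the proprotein convertases, enzymes that cleave precursor proteins, Furin had 291, 379, 330 and 321 CPM, Pcsk6 56.1 to 86.8 and Pcsk7 22.7 to 36.5. Pcsk5, at a lower level, differed more: it had 2.85, 6.19, 7.63 and 22.4 CPM, with tumour 10 at 7.86 times tumour 1 [6.63 to 9.37] (edgeR adjusted p = 0.492 for tumour 10). Igsf1, a membrane protein once proposed as an inhibin co-receptor, was present in tumours 5 and 9, at 6.93 and 4.17 CPM, and had 7 and 1 counts in tumours 1 and 10. Dact2, an inhibitor of NODAL and activin receptor signalling, had 22.1, 39.2, 16.9 and 2.02 CPM, and DESeq2 called it lower in tumour 10 (adjusted p = 1.82e-06, edgeR 0.255).

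Inside the cell, Smad4, the partner of SMAD2 and SMAD3, had 73.4 to 89.5 CPM, and Ppm1a, a phosphatase of these SMADs, 122 to 146 CPM. Nedd4l, a ubiquitin ligase for SMAD2 and SMAD3, was highest in tumour 10, at 136 CPM against 56.4 to 83.8. Zfyve9 (SARA), which anchors SMAD2 at the receptor, had 14.8, 8.34, 7.52 and 0.773 CPM, and DESeq2 called it lower in tumour 10 (adjusted p = 6.34e-05, edgeR 0.295).

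Pmepa1, the mouse gene of the label, had 2.43, 7.28, 4.19 and 0.922 CPM, and Myc had 4.86, 6.84, 8.58 and 7.40 CPM. Ldlrad4, a relative of Pmepa1 that also binds SMADs, was highest in tumour 10, where Pmepa1 was lowest, with 3.83, 1.63, 0.986 and 10.4 CPM. The species of the delivered sequences is not in the labels.

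Of 10 expressed SMAD2/3 target genes and hepcidin genes, 5 were lowest in tumour 9 and 4 in tumour 10, against 25.5% and 32.4% of all expressed genes. Highest in tumour 9 were 2 of the 10, and in tumour 10 there were 3, against 21.6% and 35.8%. The 2 highest in tumour 9 were Ctgf and Tgfbi. Ctgf had 14.1, 12.2, 44.9 and 10.8 CPM in tumours 1, 5, 9 and 10, and Tgfbi had 10.6, 3.99, 25.3 and 3.24 CPM. Skil, a SMAD corepressor, had 38.0, 43.6, 22.3 and 33.6 CPM in tumours 1, 5, 9 and 10, and Cdkn1a (p21), a cell cycle inhibitor, had 140, 156, 78.0 and 196 CPM. Both were lowest in tumour 9, where Inhbe was highest. Their log2 differences from the other tumours there were -0.78 and -1.07, and neither passed the edgeR test. A link of Skil or Cdkn1a to Inhbe was not tested. Hamp, encoding hepcidin, which activin B can induce in hepatocytes, had 48.0, 10.6, 39.2 and 1.22 CPM. It was lowest in tumour 10, where Inhbb was highest under TMM, and a link of Hamp to Inhbb was not tested. DESeq2 called Hamp lower there (adjusted p = 4.12e-06), and edgeR did not (0.415). Hamp2, its near copy, had 3.60 CPM in tumour 10 and 0.130 to 0.891 elsewhere, and reads may be shared between the 2 copies.

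The stress genes induced through ATF4, a pathway known to raise Inhbe in stressed hepatocytes, were listed beside it. Of 11 expressed genes, 2 were highest in tumour 9 and 6 were lowest there, against 21.6% and 25.5% of all expressed genes. The 2 highest there were Atf5, with 146, 104, 211 and 125 CPM in tumours 1, 5, 9 and 10, and Ppp1r15a, with 30.1, 22.5, 38.8 and 25.1 CPM. Both were lowest in tumour 5. Those lowest in tumour 9 included Atf3 (36.1, 75.6, 18.4 and 87.4 CPM), Trib3 (16.1, 33.6, 7.67 and 17.2 CPM) and Ddit3 (15.7, 21.9, 15.1 and 25.1 CPM). A link of these genes to Inhbe was not tested. Atf4 had 165, 260, 137 and 169 CPM, Asns 219, 227, 218 and 242, and Chac1 2.66, 4.25, 0.614 and 0.951. Psat1, a serine synthesis enzyme, had 1320, 1710, 784 and 177 CPM, and DESeq2 called it lower in tumour 10 (adjusted p = 6.83e-07, edgeR 0.267).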

How the data were processed

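Poly-A RNA of 4 tumours was made into TruSeq libraries, per the labels' protocols. The submitters' processing notes name FastQC 0.11.8 and GRCm38, while an aligner, a counting program and the use of strand were not given in the sources used here. The deposited counts are whole reads per RefSeq transcript row (33984 rows). The deposited FPKM, so named per the file headers, gave transcript lengths (counts over the count total and FPKM). The deposited TPM served to check that it sums to 1000000. Each gene was taken as its row with the highest mean count.

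Counts were scaled by TMM (factors 1.102, 1.031, 1.098 and 0.8018 for tumours 1, 5, 9 and 10) in R 4.3.3 with edgeR 4.0.16; log2 CPM adds a prior count of 2. Scaling by totals without TMM shifts the median gene 0.14, 0.04, 0.13 and -0.32 log2 units. Tests were a Poisson heterogeneity chi-square test and edgeR's robust quasi-likelihood test of 1 tumour against 3, both two-sided with Benjamini-Hochberg adjustment at 0.05; DESeq2 1.42.0 and limma 3.58.1 were alternatives. On simulated counts at the dispersion of the data (0.298), the test of tumour 10 recovered 2% of 4-fold and 46% of 16-fold changes over 13129 genes. With counting noise alone, the Poisson test called 0% of 13129 genes.

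Named genes were the 10 genes, Myc and Pmepa1, and from each pathway list the 3 most abundant expressed genes and the 2 with the greatest SD, besides the nearest profiles; 1 gene that this rule names is not reported here. Prss57, Orc4, Pcsk5, Atf5, Ppp1r15a, Clec4f, Marco, Ctgf, Tgfbi, Atf3, Trib3, Ddit3, Ddit4 and Smurf1 were named after their values were seen. Members and lists were chosen with earlier results of these data known. Ccn2 and Adgre1 were read under the older symbols Ctgf and Emr1. Gene positions come from GENCODE M21 (GRCm38), sequences from RefSeq (GRCm38.p6).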

Additional observations from a re-analysis of the deposited data

Results flagged for a closer look

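A value was picked out where 1 tumour's CPM lay far from the other 3, by Dixon's test for 4 samples, which chance passes in about 1 of 20 groups. Of 44 genes checked, 7 were picked out, and 4 of these were chosen for a profile like that of Fst or Fstl3, so they add nothing independent. Fst stood apart in tumour 1, at 3.42 CPM, and Fstl3 in tumour 10, at 46.2 CPM. Mstn stood apart in tumour 10, at 4.67 CPM. Of the near profiles, Cxxc4 stood apart in tumour 1, at 4.21 CPM, and Mrap, Prss57 and Mgmt in tumour 10, at 209.0, 31.6 and 21.1 CPM. Fst, Mstn and Cxxc4 reached a mean of 1 CPM only through the tumour in which each stood apart, so for them the test adds nothing to the filter.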

How the results depend on the processing

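The number of activin genes beyond counting noise, 7 of 8, was 6 to 8 under all 10 alternatives: DESeq2 size factors, total counts, the sum over transcript rows, no filter, a filter of 5 CPM, 5% technical variation and leaving out each tumour. The sum over rows and the stricter filter left 7 genes to test, and no filter left 10, of which 8 passed. Acvr2a passed with total counts, without tumour 1, where all 7 tested genes passed, and without tumour 10, where 8 of 9 passed and Acvr2b did not. In the tests of 1 tumour against the others, the count stayed at 0 for tumours 1, 5 and 9 under every alternative run. For tumour 10 it was 1 with the DESeq2 Wald test, and it ranged from 0 to 1 when 1 replicate was left out; in both cases the gene was Fstl3. The share of all genes called with a replicate left out is not given. No paired analysis was possible because all samples belong to 1 group. The mean log2 CPM of Fstl3 was 2.48, and 0.55 with the Prss57 counts taken off, an alternative added after the data were seen. Depth limits Acvr1c, Inhba and Fst, which rest on 0 to 196 counts per tumour, and 4 tumours with a wide spread limit every test between them.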
